A study of Homo sapiens with 6 samples.

Results

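The 35 genes described here encode cytosolic and mitochondrial heat shock proteins, their co-chaperones, the transcription factors HSF1 and HSF2, the polyubiquitin gene UBB and 7 subunits of the cytosolic chaperonin CCT. They were taken by symbol from the deposited table of 22701 genes, and all 35 were found in it. Expression was read out in LX-2, an immortalised line of human hepatic stellate cells, which are the main makers of scar matrix in the liver. Both groups of 3 libraries received TGF-β, labelled 5 µg/mL, and 1 of them also received 20 µM LIG (ligustilide, a phthalide of Angelica and Ligusticum plants). All libraries thus came from 1 cell line under TGF-β. Libraries of LX-2 without TGF-β, with LIG alone or after heat were not analysed here. Neither a treatment time nor an origin of the replicates from separate cultures is given in the labels, and p-values reflect no more than the spread among the 6 libraries.

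Heat shock proteins are molecular chaperones that bind unfolded or newly made proteins and keep them from aggregating. HSP70 works with J proteins, which deliver clients and stimulate its ATPase, and with nucleotide exchange factors such as the HSP110 and BAG proteins; HSP90 takes over late folding steps of kinases and receptors with the help of a set of co-chaperones. When unfolded or electrophile-modified proteins build up, HSF1 trimers bind heat shock elements, inverted repeats of GAA, in the promoters of many of these genes and raise their transcription. CCT is a ring-shaped chaperonin that folds actin and tubulin, proteins of which activated stellate cells make large amounts.

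Of the 35 genes, 32 had a mean of at least 1 FPKM (fragments counted on a gene, divided by its length and by the depth of the library) over the 6 libraries and were tested. HSPA1L, HSPA6 and CRYAB fell under this level. Fragments, here and below, were inferred from the FPKM values. The inferred library totals ran from 38401783 to 39260090 fragments. The tested gene with the fewest, HSPA4L, still had 499 in its lowest library. On the first principal component of the tested genes, which held 55.1% of the variance, TGF-β replicate 2 (7.78) and LIG replicate 3 (18.1) stood apart from the other 4 libraries (-8.96 to -5.37), so results that rest on them are also given without them. Of the tested genes, 1 changed and 31 did not pass, among all 10695 genes tested by limma with Benjamini-Hochberg adjustment over all of them. DNAJB4, a J protein, fell with LIG. The background was 0.692% of all genes called in either direction, 0.505% called lower and 0.187% called higher. By unadjusted p under 0.05, 2 of the 32 differed (6.25%), against 8.41% of all genes tested.

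**Figure D1:**
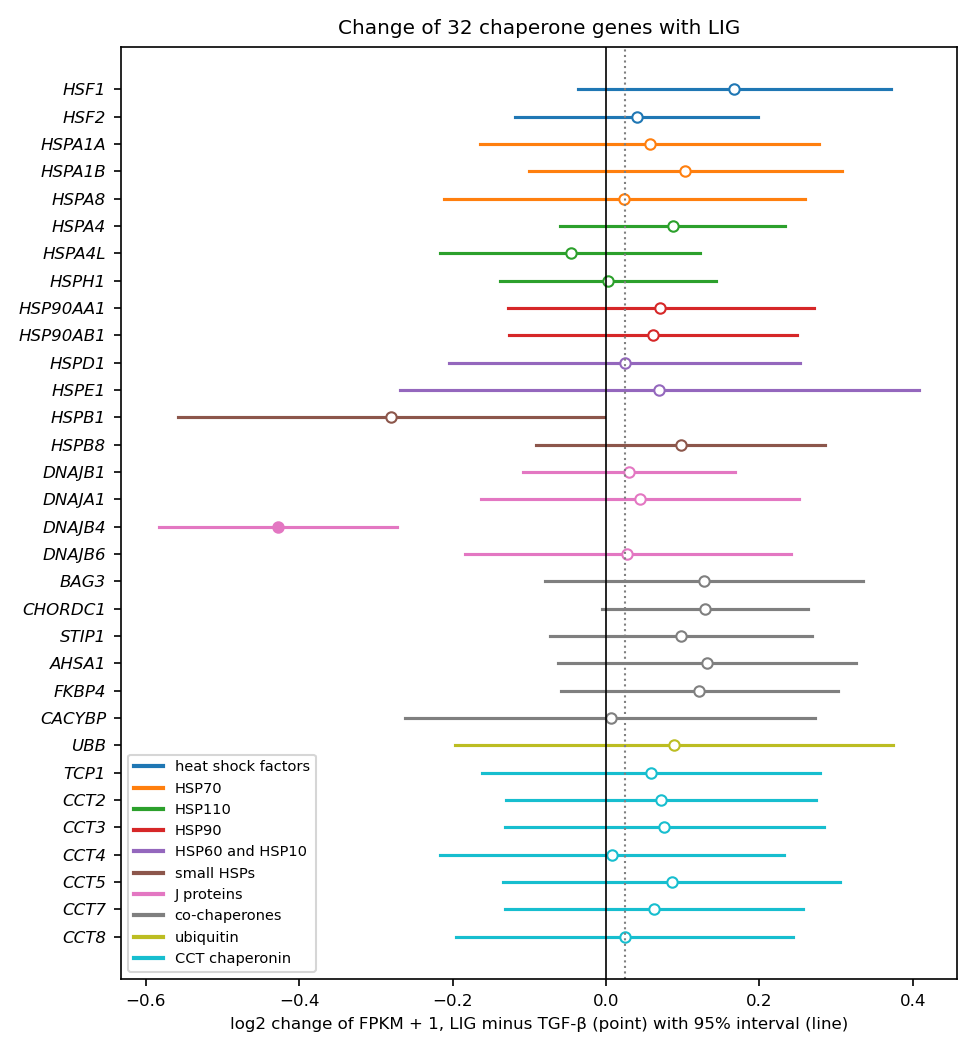
Log2 change of FPKM + 1 between the 3 LIG and the 3 TGF-β libraries for the 32 tested genes (points, filled where the limma adjusted p is under 0.05), with 95% intervals (lines) and the median of all genes tested as a dotted line. The interval of DNAJB4, from -0.58 to -0.27, lies apart from 0. That of HSPB1, which did not pass, runs from -0.558 to -0.003, just short of 0. The highest upper bound, that of HSPE1, is 0.41.

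The promoters of several of these genes hold the heat shock element, and the stretches below are shown because they set the classical heat shock genes beside DNAJB4, the gene that fell. RefSeq promoters on GRCh38.p14, each running from 250 bases before to 50 after an annotated start, were found for 32 of the 35 genes; HSF1, CRYAB and FKBP4 had no entry. Each stretch is read 5′ to 3′ on the strand of the gene and leaves out exons of coding transcripts. Capitals mark every match to the paired element GAANNTTC or TTCNNGAA, overlapping matches included. DNAJB4, HSP90AB1 and DNAJB1 have several annotated starts, and a single promoter of each is shown. The most upstream promoter of each, not shown, held no match to the paired element. Which start is used in these cells was not tested. The stretches are at chr6:31815293-31815463 (HSPA1A, plus strand), chr6:31827488-31827734 (HSPA1B, plus strand), chr1:161524290-161524539 (HSPA6, plus strand), chr6:44247693-44247865 (HSP90AB1, plus strand), chr19:14518421-14518647 (DNAJB1, minus strand) and chr1:78004689-78004853 (DNAJB4, plus strand, before the downstream of its 2 annotated starts).
HSPA1A: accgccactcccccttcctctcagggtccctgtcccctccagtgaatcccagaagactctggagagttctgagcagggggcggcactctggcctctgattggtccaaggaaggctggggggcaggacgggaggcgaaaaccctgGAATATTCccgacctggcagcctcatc
HSPA1B: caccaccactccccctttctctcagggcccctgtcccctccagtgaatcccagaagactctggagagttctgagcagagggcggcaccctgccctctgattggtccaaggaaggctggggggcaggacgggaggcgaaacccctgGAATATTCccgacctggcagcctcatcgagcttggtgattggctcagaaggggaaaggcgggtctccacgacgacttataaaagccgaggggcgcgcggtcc
HSPA6: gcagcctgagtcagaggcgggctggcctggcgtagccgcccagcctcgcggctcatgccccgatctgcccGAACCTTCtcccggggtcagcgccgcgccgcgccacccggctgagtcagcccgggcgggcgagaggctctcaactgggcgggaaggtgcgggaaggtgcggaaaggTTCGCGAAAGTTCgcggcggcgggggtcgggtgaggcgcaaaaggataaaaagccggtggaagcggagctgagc
HSP90AB1: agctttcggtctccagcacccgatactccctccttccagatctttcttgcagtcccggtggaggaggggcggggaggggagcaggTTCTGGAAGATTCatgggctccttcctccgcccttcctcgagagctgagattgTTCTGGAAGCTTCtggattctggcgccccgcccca
DNAJB1: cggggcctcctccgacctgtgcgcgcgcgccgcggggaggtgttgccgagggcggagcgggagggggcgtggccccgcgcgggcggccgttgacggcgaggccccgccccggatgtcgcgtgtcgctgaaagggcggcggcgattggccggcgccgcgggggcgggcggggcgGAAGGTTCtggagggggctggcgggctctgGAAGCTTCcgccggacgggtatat
DNAJB4: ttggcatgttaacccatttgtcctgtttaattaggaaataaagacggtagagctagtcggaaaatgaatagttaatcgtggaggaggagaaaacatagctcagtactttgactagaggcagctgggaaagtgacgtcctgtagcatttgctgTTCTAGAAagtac

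The element with 3 units, GAANNTTCNNGAA or TTCNNGAANNTTC on either strand, was present in 0.49% of all 35116 RefSeq promoters. It was present in promoters of 8 of the 32 genes with an entry, namely HSPA6, HSPA8, HSP90AA1, HSP90AB1, HSPD1, DNAJA1, DNAJB6 and CHORDC1. The 7 of these that were tested had log2 changes between 0.02 and 0.13, and none passed; over all genes tested, 0 of 43 carriers were called. The paired element, which the longer one always contains, was present in 13.5% of all promoters and in promoters of 20 of the 32 genes. Its 18 tested carriers had a median log2 change of 0.05, and DNAJB4 was the 1 that passed. Over all genes tested, 11 of 1174 carriers were called, with a median log2 change of 0.02. A match to the antioxidant response element TGACNNNGC, on either strand, was present in promoters of 9 of the 32 genes and in 13.3% of all promoters, and none of its 8 tested carriers passed, against 9 of 1695 carriers called over all genes tested. Some genes have several annotated starts and so several promoters, which gives them more chances of a match. Only exact matches within these promoters were searched. A gene without a match may thus still hold an element that differs from these letters or lies elsewhere. Counted by gene among those tested with a promoter entry, the 3-unit element was in 7 of 30 chaperone genes and 0.492% of all, the paired element in 18 of 30 and 13.4%, and the antioxidant response element in 8 of 30 (26.7%) and 19.4%.

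The 2 heat shock factors did not pass. HSF1, the factor that drives the heat shock response, was at 13.97, 16.09 and 16.06 FPKM in the TGF-β libraries (replicates 1 to 3, here and below), against 16.11, 16.76 and 19.33 FPKM in the LIG libraries. The groups did not overlap, but 2 TGF-β libraries lay just below the lowest LIG library, and the log2 change of 0.17 ± 0.09 (SE) gave an adjusted p of 0.702 by limma. HSF2, a second factor of the family that can bind the same elements, was at 8.14 ± 0.45 FPKM (SD, n = 3) with TGF-β and 8.39 ± 0.40 FPKM (n = 3) with LIG. HSF1 is controlled mainly at the protein level, so these values say how much of its transcript was present and nothing about its activity.

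HSP70 genes, the classical readout of HSF1, stayed within the spread of the libraries. HSPA1A and HSPA1B encode the stress-inducible HSP70. HSPA1A was at 22.4, 24.9 and 22.8 FPKM in the TGF-β libraries, against 22.2, 22.9 and 28.2 FPKM in the LIG libraries, and HSPA1B at 19.9, 20.8 and 19.6 FPKM and at 20.5, 19.9 and 24.9 FPKM. In both genes LIG replicate 3 was the highest library and the groups overlapped. The log2 changes were 0.06 ± 0.10 and 0.10 ± 0.09 (limma adjusted p = 0.958 and 0.863), with 95% intervals up to 1.21-fold and 1.24-fold. Of the 75-base stretches of their coding transcripts, 69.3% of those of HSPA1A and 70.1% of those of HSPA1B are also found in the other gene, so reads of the pair could be split between them in an unknown way. AL671762.1 on the same strand covers 36.5% of the exon bases of HSPA1B. Summed into 1 row the pair had a log2 change of 0.08 (adjusted p = 0.927).

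HSPA6, an HSP70 that is almost silent in unstressed cells and strongly induced by proteotoxic stress, rested on 16, 28 and 21 fragments in the TGF-β libraries, against 31, 15 and 34 in the LIG libraries. This is 0.18, 0.30 and 0.23 FPKM against 0.34, 0.17 and 0.37 FPKM, and the groups overlapped. HSPA6 shares 35.0% of its 75-base stretches with HSPA7. HSPA1L, a relative best known from the testis, lay between 0.64 and 1.04 FPKM over the 6 libraries. HSPA8 encodes the constitutive HSP70 of all cells and was the most abundant of the 35 transcripts per length. It was at 1383, 1464 and 1381 FPKM with TGF-β, against 1370.2, 1374 and 1560.4 FPKM with LIG, and its log2 change was 0.02 ± 0.10 (adjusted p = 0.986). The higher of the values came from TGF-β replicate 2 and LIG replicate 3.

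The HSP110 proteins act as exchange factors of HSP70. HSPH1, an HSF1 target, was the flattest of them across groups, at 104.5, 110.9 and 106.8 FPKM with TGF-β, against 107.0, 107.8 and 107.9 FPKM with LIG. Its log2 change was 0.00 ± 0.06, with a 95% interval from -0.14 to 0.14. HSPA4 was at 74.2, 76.0 and 73.8 FPKM and at 80.4, 75.3 and 82.6 FPKM (log2 change 0.09 ± 0.06, adjusted p = 0.820). Its LIG replicate 2 lay below TGF-β replicate 2, so the groups overlapped. HSPA4L was near the lowest level tested, at 1.22 ± 0.13 and 1.15 ± 0.09 FPKM.

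Neither HSP90 gene passed. HSP90AA1, the stress-responsive isoform, was at 448, 504 and 454 FPKM in the TGF-β libraries, against 473, 484 and 519 FPKM in the LIG libraries (log2 change 0.07 ± 0.09, adjusted p = 0.930). HSP90AB1, the constitutive isoform, was at 391, 425 and 399 FPKM and at 407, 412 and 449 FPKM (log2 change 0.06 ± 0.08, adjusted p = 0.940). In both genes the TGF-β library highest of its group lay above 2 of the 3 LIG libraries. The ratio of HSP90AA1 to HSP90AB1 FPKM was 1.16 ± 0.03 with TGF-β and 1.16 ± 0.01 with LIG, a difference within the SD of either group.

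HSPD1 and HSPE1 encode the mitochondrial chaperonin HSP60 and its lid HSP10 and lie head to head on chromosome 2. HSPD1 was at 357, 416 and 361 FPKM with TGF-β, against 372, 360 and 423 FPKM with LIG. HSPE1 was at 87.1, 114.2 and 104.1 FPKM and at 93.7, 97.1 and 131.8 FPKM. The spread within each group was larger than the difference between groups in both genes, with log2 changes of 0.02 ± 0.10 and 0.07 ± 0.15 (adjusted p = 0.986 and 0.973). Opposite-strand exons of the partner cover 6.6% of the exon bases of HSPD1 and 14.2% of those of HSPE1, and whether counting used strand is not given in the sources used here.

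Small heat shock proteins hold unfolded clients in oligomers without using ATP. HSPB1 encodes HSP27, which also binds actin filaments, and was the second gene with an unadjusted p under 0.05. It was at 180.5, 207.1 and 180.7 FPKM in the TGF-β libraries, against 138.0, 146.2 and 186.2 FPKM in the LIG libraries. LIG replicates 1 and 2 lay below all TGF-β libraries, and LIG replicate 3 lay among them. The log2 change of -0.28 ± 0.12 did not pass (limma adjusted p = 0.581). Without TGF-β replicate 2 and LIG replicate 3, which were picked from these same data for standing apart, HSPB1 fell (log2 change -0.34, limma adjusted p = 0.00163). This comparison kept 2 libraries per group and called 4.65% of all genes. With TGF-β replicate 2 alone left out HSPB1 did not pass (log2 change -0.215, adjusted p = 0.698, 0.271% of all genes called). The same held with LIG replicate 3 alone left out (-0.41, adjusted p = 0.08, 0.87% called). Its adjusted p ran from 0.00163 to 0.999 over its 16 alternatives. HSPB8, which works with BAG3 in the autophagic removal of damaged proteins, was at 9.45 ± 0.40 and 10.2 ± 1.02 FPKM (adjusted p = 0.857). CRYAB, the αB-crystallin gene, had between 2 and 11 fragments per library.

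DNAJB4 was the J protein gene that fell. It encodes a type II J protein that cooperates with HSP70 and lies on chromosome 1 from 77979175 to 78017964 (GRCh38, GENCODE 29, plus strand). The gene was at 23.8, 25.5 and 24.1 FPKM in the TGF-β libraries, against 19.1, 17.7 and 17.0 FPKM in the LIG libraries. All 3 LIG libraries lay below all 3 TGF-β libraries, and the ratio of group means was 1.36 in favour of TGF-β. The log2 change was -0.43 ± 0.07 with a 95% interval from -0.58 to -0.27 (limma adjusted p = 0.0384). None of its 75-base stretches is found in another gene, and exons of GIPC2 on the same strand cover 2.1% of its exon bases. The call depended on the libraries used. When 1 TGF-β library was left out, the adjusted p of DNAJB4 was 0.172 (replicate 1), 0.152 (replicate 2) and 0.225 (replicate 3), in fits that called 0.196%, 0.271% and 0.103% of all genes. When 1 LIG library was left out it was 0.084 (replicate 1), 0.218 (replicate 2) and 0.0362 (replicate 3), in fits that called 0.206%, 0.187% and 0.87%. Among the other settings, the call was lost after rescaling to TPM (adjusted p = 0.0746, 0.795% of all genes called) and with no filter on low values (0.111, with 0.0617% called). It was also lost with a block for replicate number, whose values are given in the last section. Without TGF-β replicate 2 and LIG replicate 3 together, which were picked from these same data, DNAJB4 fell too (adjusted p = 0.00399, 4.65% of all genes called). The log2 change stayed between -0.47 and -0.36 over all 16 alternatives. In bulk RNA, fewer cells with a transcript and less of it per cell cannot be told apart.

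**Figure D2:**
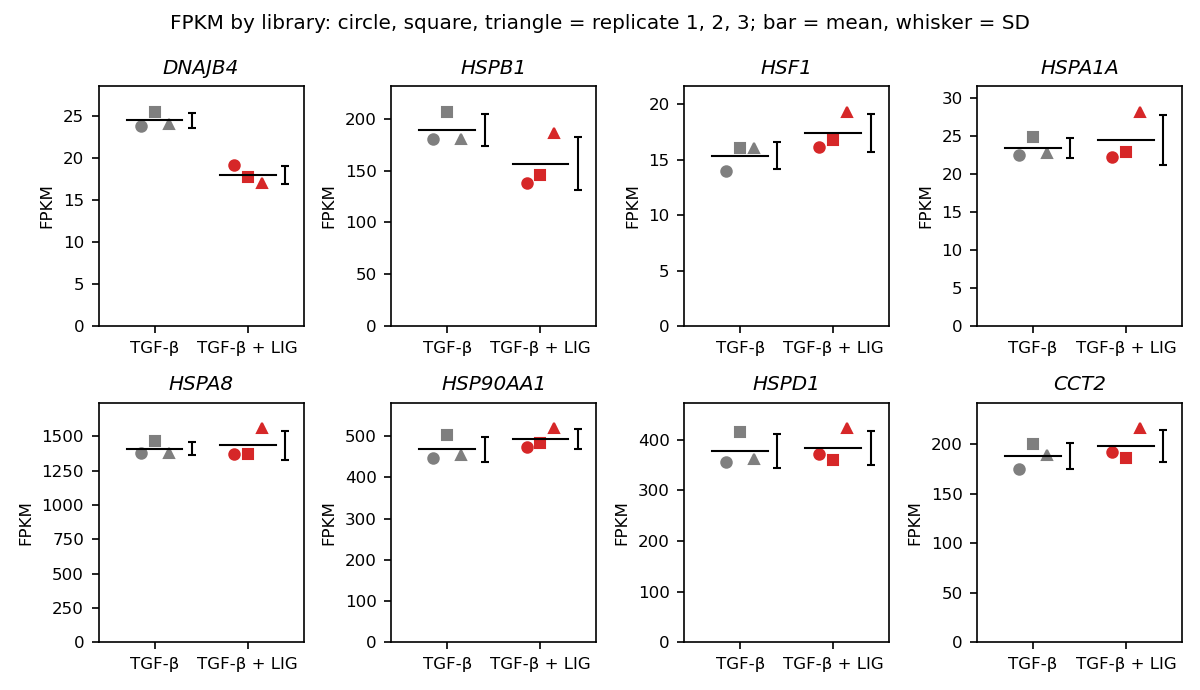
FPKM of 8 genes in each library (symbols, by replicate) with group mean (bar) and SD (whisker), on linear axes from 0. For DNAJB4 the LIG libraries, at 17.0 to 19.1 FPKM, lie below the TGF-β libraries, at 23.8 to 25.5 FPKM, and in the other 7 genes replicate 3 is the highest LIG library.

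None of the other 3 J proteins passed. DNAJB1, the closest relative of DNAJB4 among these genes and a sensitive HSF1 target, was at 26.6, 27.7 and 26.8 FPKM with TGF-β, against 26.4, 28.2 and 28.2 FPKM with LIG. Its log2 change of 0.03 ± 0.06 had a 95% interval from -0.11 to 0.17, which does not reach the interval of DNAJB4. DNAJA1, the most abundant J protein here, was at 133, 152 and 134 FPKM and at 140.1, 134 and 159 FPKM (adjusted p = 0.970). DNAJB6, which suppresses aggregation of polyglutamine proteins, was at 40.0 ± 3.42 and 40.9 ± 3.91 FPKM (adjusted p = 0.981). The difference between DNAJB4 and its relatives was not itself tested.

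All 6 co-chaperone genes had a log2 change above 0, and none passed, with a family median of 0.125. CHORDC1, an HSP90 partner and HSF1 target, was at 41.0, 42.8 and 40.5 FPKM in the TGF-β libraries, against 45.1, 44.9 and 46.2 FPKM in the LIG libraries. These groups did not overlap, but the log2 change of 0.13 ± 0.06 did not pass (limma adjusted p = 0.606). STIP1, the adaptor that hands clients from HSP70 to HSP90, was at 141, 147.5 and 145 FPKM and at 147, 151 and 168 FPKM (adjusted p = 0.828). The upper value again came from LIG replicate 3. BAG3, an exchange factor of HSP70 that is strongly induced by proteotoxic stress, was at 30.2 ± 0.86 and 33.3 ± 4.18 FPKM (adjusted p = 0.810). AHSA1, which stimulates the HSP90 ATPase, was at 82.0 ± 4.81 and 90.1 ± 8.26 FPKM, and FKBP4, an immunophilin of steroid receptor complexes, at 40.0 ± 1.37 and 43.7 ± 4.07 FPKM. CACYBP, a partner of the ubiquitin ligase SIAH1, was at 24.6 ± 3.07 and 24.7 ± 3.43 FPKM. Without LIG replicate 3 the family median was 0.045.

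UBB, a polyubiquitin gene that is raised by heat and other proteotoxic stress, was at 381, 462 and 392 FPKM with TGF-β, against 400.4, 405 and 513 FPKM with LIG (log2 change 0.09 ± 0.12, adjusted p = 0.944). TGF-β replicate 2 lay above LIG replicates 1 and 2. Exons of AC093484.3 on the opposite strand cover 28.4% of its exon bases.

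The 7 CCT subunits varied together across the libraries, and none passed. Each mature CCT ring holds 1 copy of every subunit, while the transcript levels per length ran from a mean of 119.9 FPKM for CCT4 to 293 FPKM for CCT5 over the 6 libraries. TCP1 and CCT2 were next to CCT5 at means of 191 and 193 FPKM, and CCT3, CCT8 and CCT7 lay at 139, 138 and 125 FPKM. CCT5, with the smallest p of the subunits, was at 268, 309 and 276 FPKM in the TGF-β libraries, against 287, 286 and 334 FPKM in the LIG libraries (log2 change 0.09 ± 0.10, adjusted p = 0.917). Exons of AC012640.4 on the opposite strand cover 30.1% of its exon bases. The log2 changes of the 7 ran from 0.01 to 0.09, and no upper bound of a 95% interval exceeded 0.31. Summed over the 7, FPKM was 1098, 1264 and 1159 with TGF-β and 1165, 1153 and 1359 with LIG. For each of the 7 subunits TGF-β replicate 2 was the highest TGF-β library and LIG replicate 3 the highest LIG library. CCT6A, the remaining subunit in the table expressed at this level, showed the same order of libraries at 95.5 ± 8.11 and 98.7 ± 6.25 FPKM (adjusted p = 0.958).

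**Figure D3:**
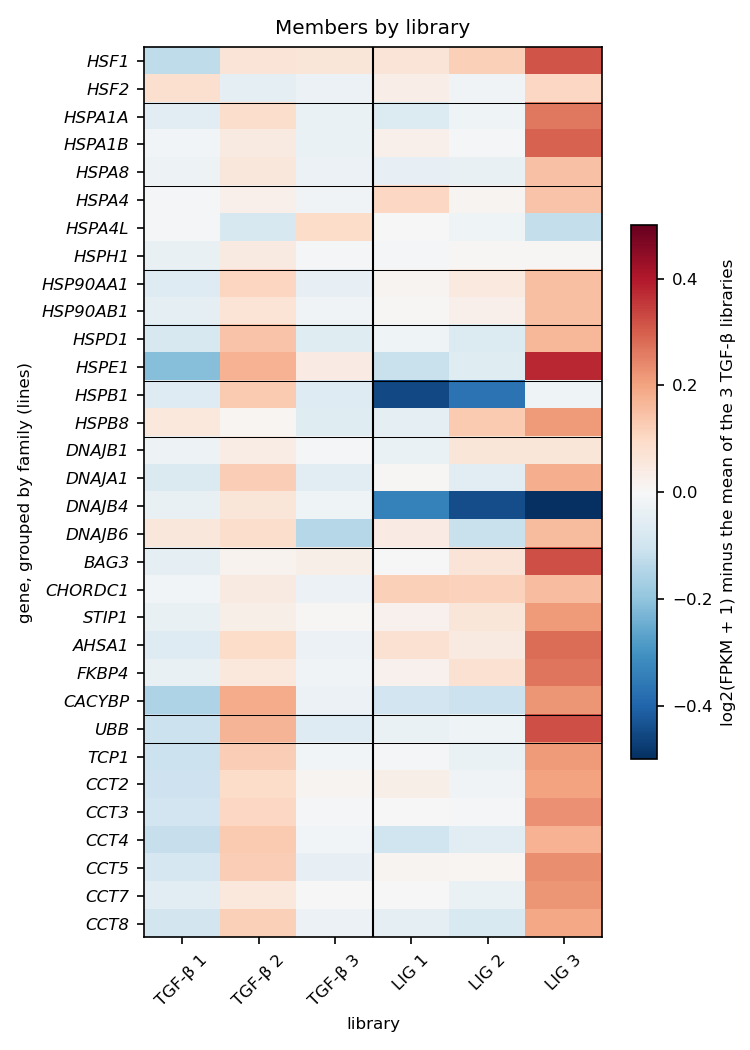
Log2(FPKM + 1) of each tested gene in each library, minus the mean of the 3 TGF-β libraries (colour), with genes grouped by family. TGF-β replicate 2 and LIG replicate 3 are the highest library of their group in 27 of 32 genes, and DNAJB4 is lower in all 3 LIG libraries.

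This order of libraries ran through most of the families. TGF-β replicate 2 was the highest TGF-β library in 28 of the 32 genes and LIG replicate 3 the highest LIG library in 30, with both true in 27 (84.4%). Over all genes tested both were true in 36.0%, and over 52 further chaperone genes in 39. The median log2 difference of TGF-β replicate 2 from the other TGF-β libraries was 0.117 over the 32 genes and 0.03 over all genes. The median difference of LIG replicate 3 from the other LIG libraries was 0.21 over the 32 genes and 0.04 over all genes. It was 0.23 for CCT, 0.34 for HSPD1 and HSPE1 and 0.01 for HSP110. The median difference between the groups over the 32 genes was 0.06. The same 2 libraries had the highest summed FPKM of the table, 348518 and 362034 against 324022 to 328949 in the others, and the part of this in the chaperone values was not tested.

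**Figure D4:**
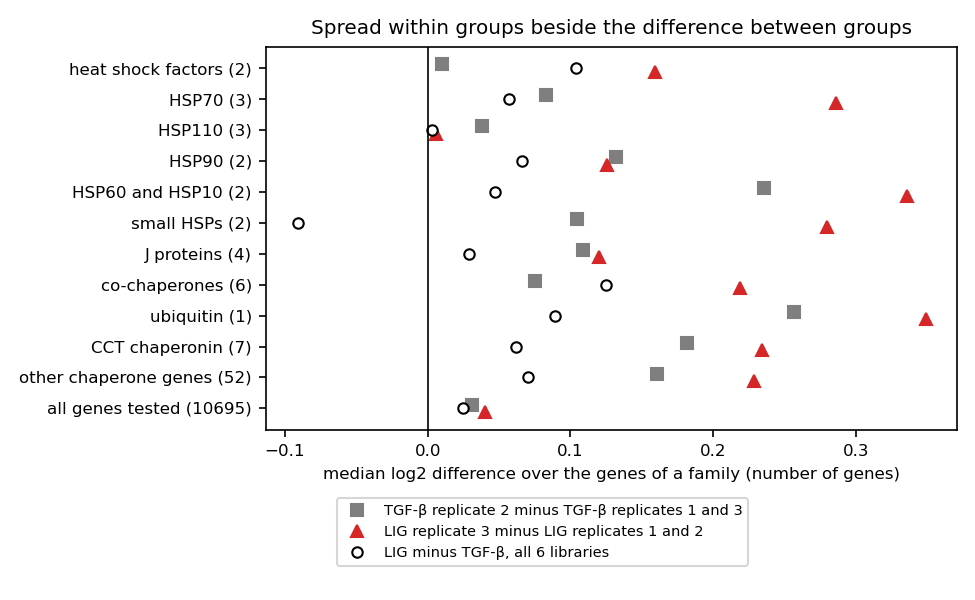
Median log2 difference over the tested genes of each family (number of genes in brackets) of TGF-β replicate 2 from the other TGF-β libraries (squares), of LIG replicate 3 from the other LIG libraries (triangles) and of LIG from TGF-β (open circles). For CCT these are 0.18, 0.23 and 0.06, and for all genes tested 0.03, 0.04 and 0.03.

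The sign of the small changes was not stable. Of the 32 genes 29 had a log2 change above 0 (90.6%, against 60.9% of all genes tested), but without LIG replicate 3 this held for 16, without both libraries that stood apart for 24, after quantile normalization for 23 and after rescaling to TPM for 26. Groups did not overlap in DNAJB4, CHORDC1 and HSF1, that is 3 of 32 genes (9.38%), against 15.8% of all genes tested. Apart from DNAJB4, the 95% intervals of the tested genes ran from -0.56 at the lowest (HSPB1) to 0.41 at the highest (HSPE1), so a rise beyond 1.33-fold lay outside each of them. With limma voom on recovered fragments, which called 0.72% of all genes, DNAJB4 was again the 1 gene called (adjusted p = 0.0381).

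The rest of the chaperone network was read from a list of 63 further genes, of which 58 were in the table and 52 were tested. None passed (limma, Benjamini-Hochberg adjusted, also with limma voom), and 1 had an unadjusted p under 0.05 (1.92%, against 8.41% of all genes tested). The median log2 change of the 52 was 0.07. The 1 gene was DNAJC5, the cysteine string protein of secretory vesicles, at 23.4 ± 2.03 FPKM with TGF-β, against 26.8 ± 0.66 FPKM with LIG (log2 change 0.19 ± 0.08, adjusted p = 0.527). SGTA, a co-chaperone for tail-anchored proteins, was at 28.1 ± 0.32 and 31.0 ± 1.54 FPKM and the mitochondrial J protein DNAJA3 at 14.7 ± 0.27 and 16.1 ± 0.62 FPKM. CDC37, which brings kinases to HSP90, was at 83.1 ± 1.19 and 93.9 ± 10.1 FPKM. UNC45A, a myosin chaperone, was at 21.0 ± 0.78 and 23.1 ± 2.06 FPKM. Groups did not overlap in DNAJC5, SGTA, DNAJA3 and CDC37, that is 4 of the 52 genes (7.69%), against 15.8% of all genes tested.

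As a check of the labelled cell type, 10 stellate cell markers were listed, of which 9 were found in the table. Of these 9, 8 were at a mean of 1 FPKM or more, led by VIM and COL1A1, while DES was at or near 0. ACTA2 was low, at 2.1, 2.8 and 3.4 FPKM in the TGF-β libraries, against 3.2, 2.9 and 2.7 FPKM in the LIG libraries. COL1A2 was uneven among the TGF-β libraries, at 0.675, 0.708 and 6.73 FPKM, and lay between 3.24 and 5.08 FPKM in the LIG libraries. Summed over the list the stellate markers came to 2588 to 2767 FPKM with TGF-β, against 2438 to 2800.0 FPKM with LIG, and most of this sum was VIM. Within the list COL3A1 fell from a mean of 20.3 to 9.96 FPKM (limma adjusted p = 0.0144). Groups did not overlap in 15.8% of all genes tested. Within the list they also did not overlap in COL1A1 (means of 665 and 503 FPKM, adjusted p = 0.118), PDGFRB (4.99 and 3.32 FPKM, 0.257) and TIMP1 (126 and 152 FPKM, 0.563), none of which passed. The part of these markers in the values of the chaperone genes was not tested. The macrophage marker PTPRC, the hepatocyte marker APOA1 and the 4 endothelial markers were each below 0.3 FPKM in every library. Of the other macrophage markers, CSF1R had means of 0.825 FPKM with TGF-β, against 0.882 FPKM with LIG, and CD14 of 0.539 and 0.335 FPKM, without overlap in either. SOX9, KRT7, SERPINA1 and CD68, listed as markers of other cell types, were at 1 FPKM or more on average, and the reason was not tested. SOX9 was at 11.93, 11.72 and 11.69 FPKM with TGF-β, against 10.04, 10.55 and 9.80 FPKM with LIG, without overlap. The summed cholangiocyte list, nearly all of it SOX9 and KRT7 with EPCAM and KRT19 near 0, was at 13.6 to 13.9 FPKM with TGF-β and lower, at 11.2 to 11.9 FPKM, with LIG; its part in the fall of DNAJB4 was not tested.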

How the data were processed

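Polyadenylated RNA of 6 LX-2 libraries, grouped by title, was sequenced. The authors deposited FPKM, per the file headers. Named in the submitters' processing notes, without roles, are fastp, HISAT2 2.1.0, DESeq2 and GRCh38.p13; counter, annotation and strand use are not given in the sources used here. FPKM steps gave back fragments, used for depth and 1 alternative. Gene lengths were chosen so that values came out whole within 0.01. That 100.0% of 114123 values above 0 did so is therefore no check of the fragments.

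The 10695 genes whose mean FPKM reached 1 were fitted as log2(FPKM + 1) with limma 3.58.1 in R 4.3.3 (group only, mean-variance trend, two-sided, 4 residual and 4.1 prior degrees of freedom). Changes are LIG minus TGF-β, adjusted by Benjamini-Hochberg (0.05) over all these genes, and understate those of low genes. Exact permutation of 3 against 3 cannot go below p = 0.1. The fit was tested on simulated data. Gene positions, overlaps and shared stretches came from GENCODE 29, promoters from RefSeq, with Python 3.11.15. The genes, lists and alternatives were chosen with earlier results of these data known. Values by library are given for genes that passed, for those with the smallest p and the highest FPKM of each family and for 7 fixed genes; of the further list, the 6 with the smallest p were chosen, of which 1 is not reported here.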

Additional observations from a re-analysis of the deposited data

How the results depend on the processing

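Alternatives were other pseudocounts, filters, scalings and models, a block for replicate number, and fewer libraries. Limma voom used library totals and was chosen after seeing the data; the TMM scaling first intended was not run. Leaving out 1 library gave between 11 and 93 genes called of all tested (74 with all libraries), between 0 and 1 of the 32 chaperone genes, and a co-chaperone median between 0.045 and 0.149. Without TGF-β replicate 2 and LIG replicate 3 together, 497 genes and 2 chaperone genes (DNAJB4 and HSPB1, both lower) were called. With no filter on low values 14 genes and 0 chaperone genes were called, and after rescaling to TPM 0 chaperone genes; the cause was not tested.

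With the replicate block 22 genes and 0 chaperone genes were called (DNAJB4 adjusted p = 0.22). Deviations from the group means correlated at 0.469, -0.574 and -0.337 for libraries numbered 1, 2 and 3, not above 0.1 in every pair, so the numbers were not taken as pairs. Family medians other than that of the co-chaperones moved by less than 1 SD of the libraries under every alternative. That SD holds the spread of the libraries that stood apart, so this says little about their sign. Without LIG replicate 3 the medians of HSP70 (-0.038), HSP60 and HSP10 (-0.065), J proteins (-0.031), UBB (-0.028) and CCT (-0.017) went from above to below 0. Those of the heat shock factors (0.05) and HSP90 (0.024) stayed above it. DNAJB4 kept its direction in all 16 alternatives and its call in 8, and in the list of further chaperone genes 0 were called throughout. The fits tested no gene under 1 FPKM, which left out HSPA1L, HSPA6 and CRYAB except with no filter.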
